A study of Mus musculus with 15 samples.

Results

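The 10 genes described here belong to the cardiac energy programme and were measured in hearts of septic and sham-operated mice. They are the nuclear receptors Ppara, Ppard, Pparg, Rxra and Esrra, the coactivators Ppargc1a and Ppargc1b, the corepressor Nrip1, and the transcription factors Nrf1 and Tfam. Every probe set that the array annotation pairs with exactly 1 of these 10 symbols was taken, which gave 18 of the 22626 probe sets tested. Ppargc1a had 5 probe sets, Nrf1 had 3, Rxra and Nrip1 had 2 each, and the other 6 genes had 1 each. Probe sets were kept apart, because those of 1 gene can read different parts of its transcripts.

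Total RNA of whole hearts was hybridised to 15 oligonucleotide arrays, 1 heart to an array and 3 to a group. Sepsis was induced by caecal ligation and perforation (CLP): gut bacteria leak into the abdomen through a hole made in the tied caecum. Hearts were taken 48 h after surgery. Wild-type C57/BL6 mice formed 3 groups: CLP hearts labelled Max Dep, CLP hearts labelled Min Dep, and sham hearts. Congenic B6.129P2-Nos2tm1Lau/J mice, which the labels call iNOS KO, formed a CLP and a sham group. Both of these carry the germline Nos2 allele, so the inducible nitric oxide synthase is missing from every tissue and not only from the heart. In the sham operation the caecum was moved but neither tied nor punctured, and all mice received buprenorphine and saline. Ages are not given in the sources used here. Pressure was recorded in the left ventricle before the hearts were taken, and the study title names myocardial depression, but the labels do not define Min Dep and Max Dep.

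PPARs bind DNA as partners of the retinoid X receptors and switch on genes of fatty acid uptake and oxidation, and PPARα is the isotype best known for this in heart muscle. The estrogen-related receptor ERRα, encoded by Esrra, and NRF1 act on genes of the citrate cycle and respiratory chain, and TFAM acts in the transcription and packaging of mitochondrial DNA. PGC-1α and PGC-1β, encoded by Ppargc1a and Ppargc1b, bind these factors and raise their activity, whereas RIP140, encoded by Nrip1, lowers it.

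Wild-type values are in standardised units: each probe set was scaled to a common mean and SD over the 9 arrays. They give no expression level and no fold change. With 6 CLP and 3 sham arrays, a probe set with an SD of 1 cannot differ by more than 2 units between these groups, apart from a small later step per array, so a difference near 2 shows clean separation and not a large change. The knockout values are centred per probe set and behave as a log difference whose base is not given. Genotypes were therefore never set against each other in level. In these bulk samples, fewer cells of a type and less RNA per cell cannot be told apart. Because values are centred, the tissue label could not be checked by level either.

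Some arrays stand apart. Wild-type sham replicate 1 had values of 2.59 to 2.66 on the 3 Xist probe sets, against -0.91 to -0.05 on the other 8 arrays, and it was lowest in Eif2s3y at -2.48. Results are given below without it where it decides a call. In the knockout table, CLP replicate 1 lay between the other CLP arrays in 76.0% of probe sets, and the other 5 columns accounted for an R squared of 0.745 of it. It was left out of the knockout tests, and its values are given and marked. The array codes in the labels run largely with group, Max Dep replicate 1 being an exception among the wild-type arrays. What they stand for is not stated, so an effect of handling order and one of surgery cannot be told apart. On at least 1 knockout array, 16 of the 18 probe sets held exactly 0, or the recurring value 0.018 in sham replicate 1, so knockout values at 0 or 0.02 carry little information.

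Promoters of 9 of the 10 genes, with 14 start sites, were read from RefSeq (GRCm38.p6), each from 250 bases before the start to 50 after it. The promoter of Ppargc1a at chr5:51567676-51567975, on the minus strand, is shown because this gene gave the clearest difference. Its capitals mark the core TGACG of the cyclic AMP response element, here on the opposite strand and 49 bases before the start. CREB is known to act on this promoter through an element of this kind. Whether these letters are that element was not tested.
Ppargc1a: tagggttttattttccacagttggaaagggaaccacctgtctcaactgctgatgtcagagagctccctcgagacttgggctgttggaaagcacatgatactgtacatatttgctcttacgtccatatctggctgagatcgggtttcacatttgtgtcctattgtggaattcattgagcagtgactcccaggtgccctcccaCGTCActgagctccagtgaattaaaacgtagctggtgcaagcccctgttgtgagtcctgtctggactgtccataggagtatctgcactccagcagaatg
The second set shows the windows around the NRF1 motif GCGCATGC, in capitals, in the promoters of Ppara (chr15:85735719-85735778, plus strand) and Esrra (chr19:6921809-6921868, minus strand), the 2 members that hold it. Cycs (chr6:50566596-50566655, minus strand), the gene of cytochrome c and a known NRF1 target, and Etfdh (chr3:79628862-79628921, minus strand), which fell in septic wild-type hearts, are printed beside them.
Ppara: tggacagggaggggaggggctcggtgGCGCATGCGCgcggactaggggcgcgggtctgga
Esrra: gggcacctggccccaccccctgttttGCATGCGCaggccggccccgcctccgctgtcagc
Cycs: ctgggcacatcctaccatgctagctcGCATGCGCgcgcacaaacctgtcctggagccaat
Etfdh: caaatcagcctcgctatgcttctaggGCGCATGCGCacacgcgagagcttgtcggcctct
In Esrra and Cycs the motif lies on the opposite strand and so reads GCATGCGC. Both strands were searched, and GCGCATGC can overlap its own match on the other strand, which gives the longer run of capitals in Ppara and Etfdh. Over 32851 promoters of the same length, GCGCATGC was found in 2.71% and TGACG in 20.8%. Among 23 target genes of ERR, NRF1 and PGC-1, GCGCATGC was found in 3, Cycs, Sdhb and Uqcrc1. None of these 3 was called for CLP against sham in wild-type hearts. A link between this motif and a fall in sepsis was not tested. TGACG lies within the full element TGACGTCA, which 1.79% of promoters hold and none of the 14 member promoters does. Ppara and Ppard held TGACG as well as Ppargc1a. The ERR motif TCAAGGTCA (0.423% of promoters) and the DR1 repeat bound by PPAR with RXR (0.0396%) were not among the letters of the member promoters. A match describes letters and does not show binding.

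Ppargc1a was lower in septic than in sham wild-type hearts on all 5 probe sets, and on 1 of them it fell past the threshold. On 1456395_at the values were -0.80, -0.93 and -0.22 in Max Dep hearts and -0.82, -1.22 and -0.18 in Min Dep hearts, against 1.67, 1.30 and 1.13 in sham hearts. All 6 septic hearts lay below all 3 sham hearts, with a gap wider than the spread inside any of the groups. The difference of CLP minus sham was -2.06 ± 0.29 standardised units (SE; limma fit, adjusted p = 0.0342), with a 95% interval of -2.77 to -1.36. This was the only one of the 18 probe sets called at an adjusted p under 0.05, a share of 5.56%, where 2.57% of all probe sets were called (1.08% higher and 1.49% lower). The call rests on unmoderated statistics: limma's eBayes moderation gave an adjusted p of 0.120 and called 0 of the 22626 probe sets. It was also lost without wild-type sham replicate 1, 2 or 3 (adjusted p = 0.0961, 0.117 and 0.122), without Max Dep replicate 1, 2 or 3 (0.0819, 0.0764 and 0.0541) and without Min Dep replicate 1 or 3 (0.0824 and 0.0544). The difference stayed between -2.20 and -1.91 in all 9 fits with 1 array left out.

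Control probe sets at the 5′ and 3′ ends of the same transcripts give a sign of RNA quality. The difference of 5′ minus 3′ control probe sets was -0.81, 0.53 and -1.85 in Max Dep and 0.07, -0.08 and -0.56 in Min Dep hearts, against 0.55, 0.39 and 1.76 in sham hearts, so it was lower in most septic hearts. With this difference as a covariate, Ppargc1a 1456395_at stood at -2.51 ± 0.32, and the call was lost (adjusted p = 0.0988), as were all 582 calls on the array.

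The probe set 1437751_at had the same pattern. Its values were -0.46, -0.62 and -0.15 in Max Dep hearts and -1.0, -1.31 and -0.27 in Min Dep hearts, against 2.01, 1.21 and 0.57 in sham hearts. Here too every septic heart was below every sham heart, but the sham hearts were further apart, and the difference of -1.90 ± 0.38 missed the threshold (adjusted p = 0.0608). These probe sets had a Pearson r of 0.96 over the 9 wild-type arrays and 0.93 over the 5 knockout arrays used, given as a description because they read the same arrays and the same gene.

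The other 3 Ppargc1a probe sets placed the Max Dep hearts differently. On 1460336_at the values were 0.47, -0.53 and -0.32 in Max Dep and -0.64, -2.26 and 0.37 in Min Dep hearts, against 1.68, 0.81 and 0.39 in sham hearts, so that the groups met at Max Dep replicate 1. On 1434099_at they were 1.35, 0.09 and 0.52 in Max Dep and -0.96, -2.27 and 0.14 in Min Dep hearts, against 1.34, 0.26 and -0.38 in sham hearts, and Max Dep replicate 1 was as high as the highest sham heart. On 1434100_x_at they were 0.01, -0.70 and 1.54 in Max Dep and -0.38, -1.23 and -0.18 in Min Dep hearts, against 1.49, 0.77 and -1.48 in sham hearts, with full overlap. The differences of CLP minus sham were -1.45 ± 0.64 (adjusted p = 0.278), -0.59 ± 0.66 (adjusted p = 0.683) and -0.42 ± 0.82 (adjusted p = 0.832). The suffix _x_at marks a probe set whose probes can also bind other transcripts. Over its 10 pairs of probe sets Ppargc1a had r of 0.42 to 0.96 with a median of 0.64, against a median of 0.21 over 12821 pairs of the same gene on the array. Over the 5 knockout arrays its pairs ranged from -0.82, between 1434100_x_at and 1460336_at, to 0.93, with a median of 0.55.

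**Figure D1:**
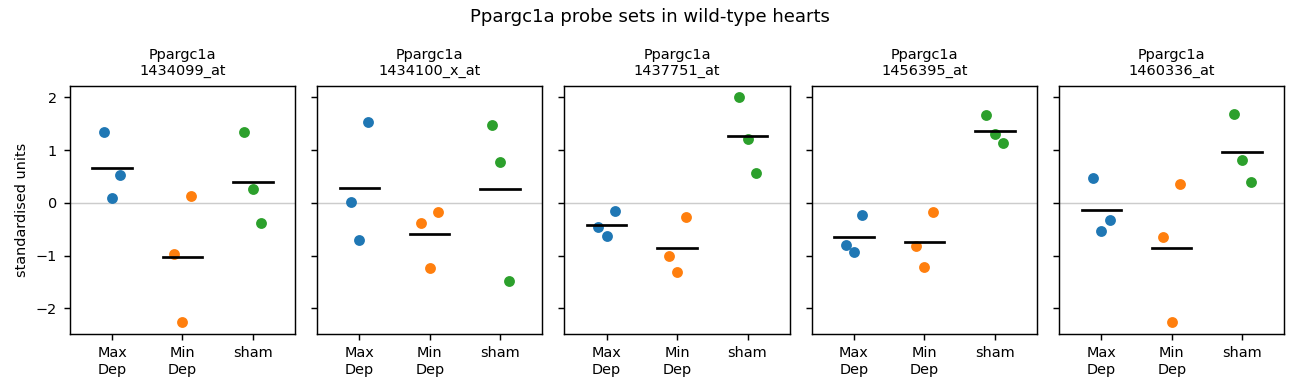
Standardised values (vertical axis, no unit) of the 5 Ppargc1a probe sets in the 9 wild-type hearts, 1 point per heart with a bar at each group's mean, Max Dep and Min Dep left of sham. On 1456395_at and 1437751_at every septic heart lies below every sham heart, while on the other 3 probe sets Max Dep hearts reach into the sham range.

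PGC-1β and the corepressor RIP140 gave no separation. Ppargc1b had 0.74, -2.59 and 1.27 in Max Dep and 0.82, -0.08 and -0.01 in Min Dep hearts, against 0.07, -0.36 and -0.31 in sham hearts. Max Dep hearts held both its highest and its lowest value, and the difference was 0.23 ± 0.88 (adjusted p = 0.921). The Nrip1 probe sets opposed each other, with r = -0.61 over the 9 arrays. CLP minus sham was 1.04 ± 0.70 on 1418469_at (adjusted p = 0.478) and -1.28 ± 0.75 on 1449089_at (adjusted p = 0.408), and on both it was sham replicate 3, at -2.07 and 2.58, that stood furthest from the rest.

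Among the PPARs, Ppara was as variable within sepsis as between the groups. Its values were 2.05, -0.48 and 0.45 in Max Dep hearts and -1.20, -2.05 and 0.31 in Min Dep hearts, against 0.30, 0.41 and 0.37 in sham hearts. The sham hearts were close together and the septic hearts lay on both sides of them. CLP minus sham was -0.52 ± 0.72 (adjusted p = 0.750), with an interval of -2.27 to 1.23 that spans both directions.

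Ppard, the broadly expressed isotype, had -0.53, -0.34 and -0.68 in Max Dep and -0.34, 0.26 and -1.01 in Min Dep hearts, against 2.41, -0.31 and 0.45 in sham hearts. Its difference of -1.29 ± 0.63 (adjusted p = 0.324) leans on sham replicate 1, since the other sham hearts lay inside or near the septic range. Pparg, the isotype that drives fat cell formation, had -1.06, 0.61 and 0.10 in Max Dep and -0.42, -1.36 and -0.78 in Min Dep hearts, against 0.11, 2.40 and 0.38 in sham hearts. Only sham replicate 2 was clearly above the septic hearts, and the difference was -1.45 ± 0.65 (adjusted p = 0.283).

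Pparg is abundant in fat cells, so adipocyte markers are given beside it. The list includes Fabp4, a gene of fat cells and of capillary endothelium, so its mean is not specific to fat. The 15 adipocyte probe sets (10 genes) had array means of -0.94, -0.47 and 0.13 in Max Dep and -0.11, -0.36 and -0.47 in Min Dep hearts, against -0.32, 1.49 and 0.96 in sham hearts. Of these probe sets 12 were lower and 3 higher in CLP than in sham hearts, with 0 called. The sham heart highest in Pparg was also highest in this mean, and the part of fat tissue in the Pparg values was not tested.

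Rxra, the shared partner of the PPARs, gave unlike answers on its probe sets (r = 0.15). On 1425762_a_at the values were 0.07, -0.07 and -1.88 in Max Dep and -0.16, -1.06 and -0.06 in Min Dep hearts, against 0.00, 1.83 and 1.30 in sham hearts. Sham replicate 1 lay inside the septic range and the other sham hearts above it, with a difference of -1.57 ± 0.63 (adjusted p = 0.239). On 1454773_at CLP minus sham was 0.62 ± 0.87 (adjusted p = 0.754), and Min Dep replicate 3 was the highest array at 2.51.

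Esrra was the only member whose septic hearts were all above the sham hearts. It had 1.93, 0.27 and 0.35 in Max Dep and 0.90, -0.44 and -0.06 in Min Dep hearts, against -1.22, -1.37 and -0.45 in sham hearts. The lowest septic and the highest sham heart nearly touched, and the difference of 1.5 ± 0.52 did not pass the threshold (adjusted p = 0.183).

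The mitochondrial factors overlapped between the groups. Tfam had 1.19, 0.28 and 0.74 in Max Dep and -2.47, 0.04 and -0.39 in Min Dep hearts, against 0.23, 0.48 and 0.44 in sham hearts, so the sham hearts lay above all Min Dep hearts and below 2 of the 3 Max Dep hearts. CLP minus sham was -0.48 ± 0.58 (adjusted p = 0.707). The 3 Nrf1 probe sets gave 1.10 ± 0.75 on 1424787_a_at (adjusted p = 0.480), 0.72 ± 0.75 on 1434627_at (adjusted p = 0.655) and 0.53 ± 0.83 on 1420978_at (adjusted p = 0.781). On the first of these Nrf1 probe sets sham replicate 3 was the lowest array at -2.13, and on the second sham replicate 2 was the lowest at -2.36.

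**Figure D2:**
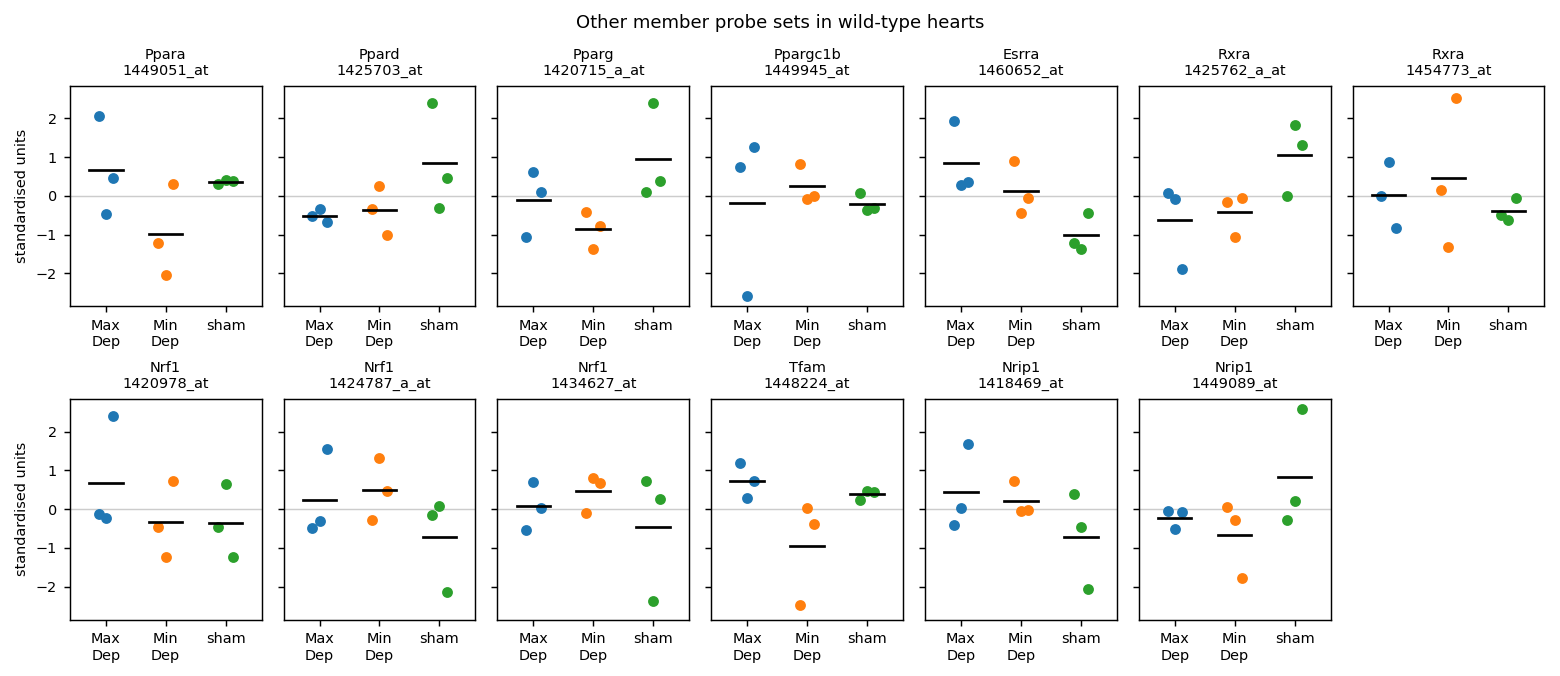
Standardised values (vertical axis, no unit) of the other member probe sets in the 9 wild-type hearts, 1 point per heart with a bar at each group's mean, Max Dep and Min Dep left of sham. Among these, Esrra has every septic heart above every sham heart, and the groups of the others overlap.

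Over the 18 member probe sets, 7 differences of CLP minus sham were above 0 and 11 below, with a median of -0.50 against 0.05 over all probe sets. Groups did not overlap in 3 members, 2 of them Ppargc1a, where 14% of all probe sets had such groups. An unadjusted p under 0.05 was reached by 4 members, or 22.2%, near the 20.3% of all probe sets. An exact permutation test over the 84 ways to choose the sham arrays (two-sided) gave its smallest possible p, 0.0238, for the 3 members without overlap, and the smallest value after adjustment over all probe sets was 0.171.

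**Figure D3:**
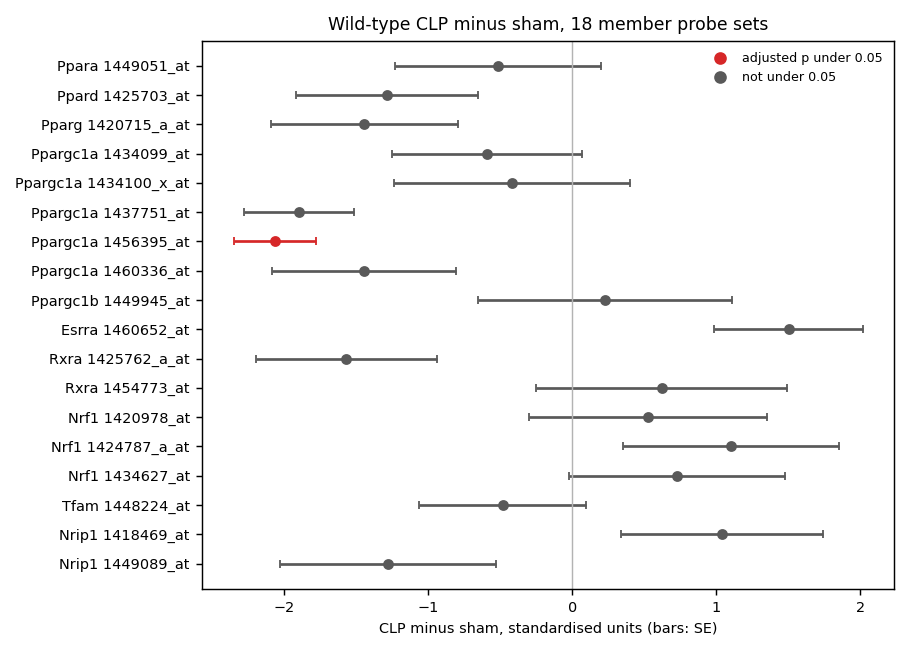
Differences of CLP minus sham in wild-type hearts in standardised units (horizontal axis), 1 line per member probe set, with bars of 1 SE to each side. The Ppargc1a probe set 1456395_at at -2.06 is the only one past the adjusted threshold, and Esrra at 1.5 is the highest.

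Against sham, the CLP groups taken singly gave 0 called members each. In Max Dep hearts 1.71% of all probe sets were called, 0.99% higher and 0.725% lower, and eBayes called 0. At an unadjusted p under 0.05 there were 3 of 18 members, against 19.7% of all probe sets, and in 4 members the groups did not overlap, against 29.4%. Ppargc1a 1456395_at differed by -2.02 ± 0.33 (adjusted p = 0.0506), 1437751_at by -1.68 ± 0.44 (adjusted p = 0.117) and Esrra by 1.86 ± 0.60 (adjusted p = 0.173). In Min Dep hearts 0.522% of all probe sets were called, 0.128% higher and 0.393% lower, and eBayes again called 0. At an unadjusted p under 0.05 there were 2 of 18 members, against 17.1% of all probe sets, and in 7 members the groups did not overlap, against 24.4%. There 1456395_at differed by -2.11 ± 0.33 (adjusted p = 0.0667) and 1437751_at by -2.12 ± 0.44 (adjusted p = 0.0963). These comparisons share the sham hearts, so their likeness is no independent evidence. The median member difference was 0.14 for Max Dep and -1.27 for Min Dep, against -0.07 and 0.14 over all probe sets.

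Max Dep against Min Dep asks whether the members differ between the labelled kinds of septic heart. No probe set on the array was called (0%), and 1 member had an unadjusted p under 0.05, against 9.84% of all probe sets; eBayes also called 0. That member was Tfam, with a difference of 1.68 ± 0.67 (adjusted p = 0.502). All its Max Dep values were above its Min Dep values; it was the 1 member of 18 without overlap, against 15.4% of all probe sets. Ppargc1a 1434099_at differed by 1.69 ± 0.76 (adjusted p = 0.532) and Ppara by 1.65 ± 0.83 (adjusted p = 0.551). For 1456395_at the difference was 0.09 with an interval of -0.72 to 0.90, so differences of that size are not excluded by these 6 hearts.

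In hearts of iNOS KO mice no member and no other probe set was called for CLP against sham (0%; eBayes, 2 CLP and 3 sham arrays). An unadjusted p under 0.05 was reached by 3 of the 18 members, where 10.9% of all probe sets reached it, and unmoderated statistics also called 0. Differences were above 0 in 9 members and below in 9, with a median of 0.06 against 0.04 over all probe sets. With 2 against 3 arrays an exact permutation test cannot go below 0.2, so the counts rest on the fit.

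Ppara had the widest gap. It was 2.90 and 6.08 in KO CLP hearts, and 2.11 in the array left out, against 0.02, -3.08 and 0.69 in KO sham hearts. Every CLP heart was above every sham heart, but the arrays spread over more than 3 units in each group, and the difference was 5.28 ± 1.40 (adjusted p = 0.248). Pparg went the other way, with -1.14 and -3.47 in KO CLP hearts, and -2.0 in the array left out, against 0.02, 2.97 and 0.27 in KO sham hearts (difference -3.39 ± 1.13, adjusted p = 0.346). Adipocyte marker means were -1.21 and -2.11 in the KO CLP hearts used, against 0.38, 0.17 and 1.14 in KO sham hearts. Of the 15 adipocyte probe sets 10 were lower and 5 higher, with 0 called, and their part in the Pparg difference was not tested.

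Ppargc1a 1437751_at was 0.00 and 1.81 in KO CLP hearts, and 0.55 in the array left out, against -1.63, -0.27 and -0.52 in KO sham hearts. The groups did not overlap, with the CLP hearts higher, but the difference of 1.71 ± 0.74 missed the threshold (adjusted p = 0.480). On 1456395_at the values were -0.13 and 1.33 in KO CLP hearts, and 0.35 in the array left out, against -1.40, -0.93 and 0.00 in KO sham hearts, which overlap. Its difference was 1.38 ± 0.68 (adjusted p = 0.547). The other 3 Ppargc1a differences lay between 0.23 and 0.54, with adjusted p of 0.781 to 0.941.

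The Nrf1 probe set 1434627_at was -0.68 and -2.34 in KO CLP hearts, and -1.18 in the array left out, against 0.36, 2.77 and 0.31 in KO sham hearts (difference -2.65 ± 0.95, adjusted p = 0.386). Esrra overlapped between the groups, at -0.13 and 0.66 in KO CLP hearts, and 0.29 in the array left out, against 0.02, -0.17 and 0.45 in KO sham hearts (difference 0.17 ± 0.50, adjusted p = 0.946). Ppargc1b had -0.43 and 0.00 in KO CLP hearts, against 5.07, -1.45 and 5.29 in KO sham hearts, where 1 sham heart lay below both CLP hearts. Groups did not overlap in 6 of the 18 members, against 27.7% of all probe sets; beside Ppara, Pparg, Ppargc1a 1437751_at and Nrf1 1434627_at these were Ppard and Rxra 1454773_at, both lower. All 5 Ppargc1a differences of CLP minus sham were below 0 in wild-type and above 0 in knockout hearts in the fits reported. These signs were not stable on every probe set: 1460336_at turned to -0.82 in knockout hearts with all 6 arrays, and with 1 array left out 1434100_x_at ranged from -1.29 to 0.20 in wild-type and from -0.23 to 0.51 in knockout hearts. In Max Dep against sham alone, 2 of the 5 were above 0. The difference between genotypes was not tested, since the tables have different scales.

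**Figure D4:**
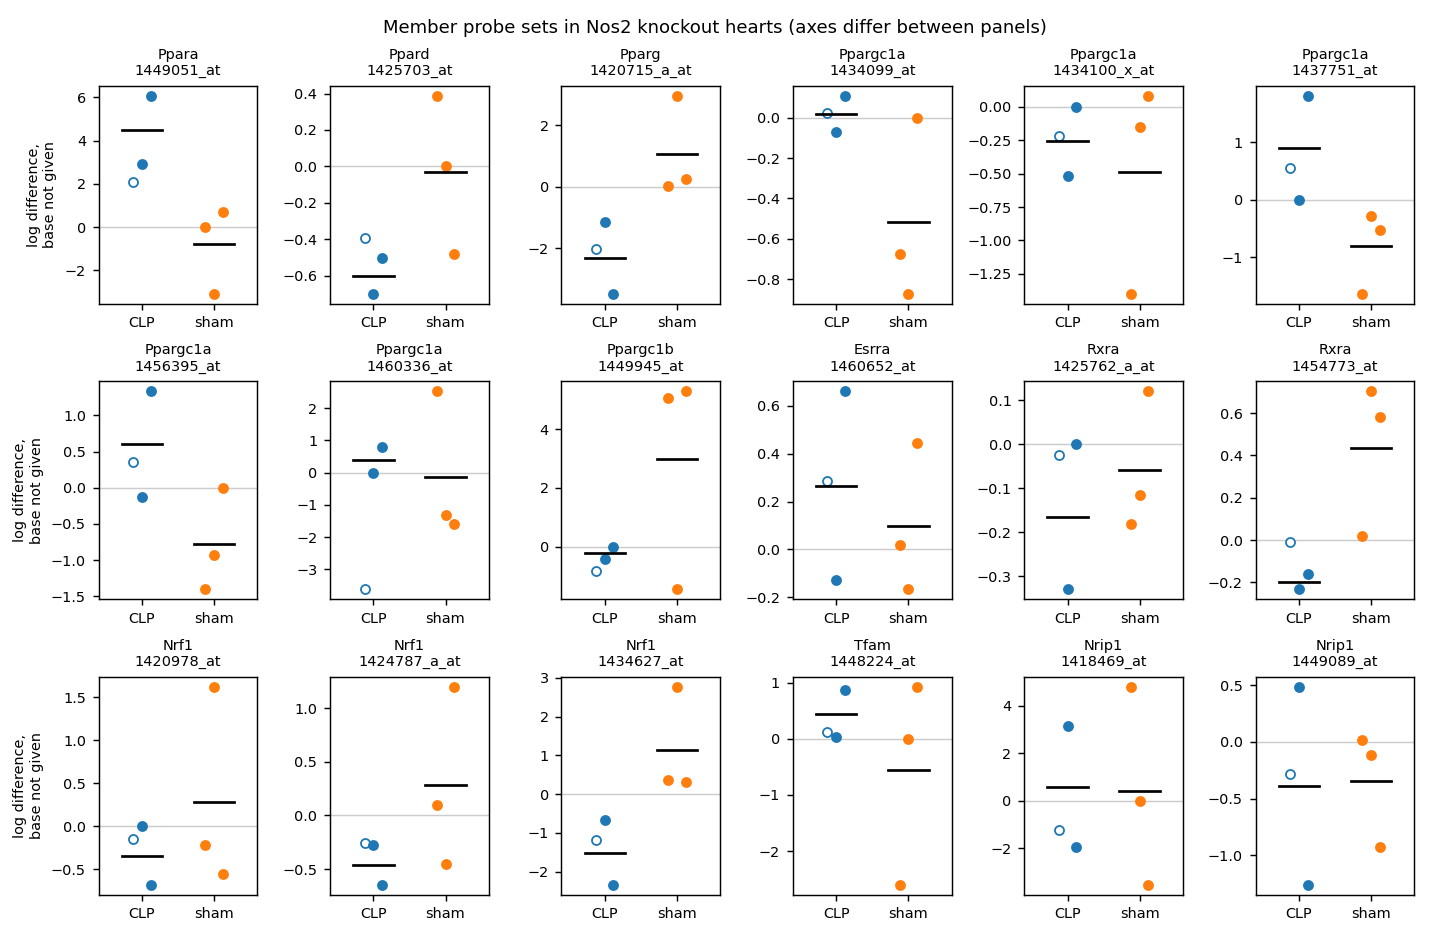
Deposited log-difference values (vertical axis, base not given) of the 18 member probe sets in the 6 knockout hearts, CLP left of sham, 1 point per heart, with CLP replicate 1 hollow and each bar at the mean of the filled points. Ppara lies between 2.11 and 6.08 in CLP hearts and between -3.08 and 0.69 in sham hearts.

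Known targets of these regulators were read from lists of genes. Of 45 probe sets for 27 fatty acid genes under PPAR control, 0 rose and 5 fell in septic wild-type hearts, with a median difference of -1.01 against 0.05 over all probe sets, of which 2.57% were called. The fall was not uniform: 17 of the 45 were higher and 28 lower. Groups did not overlap in 2 of the higher and 17 of the lower ones. Pdk4, the kinase that shuts pyruvate out of oxidation and a classical PPAR target, was -0.22, -1.26 and -0.23 in Max Dep and -0.88, -0.55 and -1.12 in Min Dep hearts, against 1.64, 1.30 and 1.19 in sham hearts. Every septic heart was below every sham heart, and Pdk4 fell by 2.08 ± 0.29 (adjusted p = 0.0339). Etfdh, which passes electrons from fatty acid oxidation to the respiratory chain, fell by 2.07 ± 0.28 (adjusted p = 0.0333). The carnitine carrier Slc25a20 fell by 2.02 ± 0.33 on 1423109_s_at (adjusted p = 0.0418), and its other probe set was not called. Both probe sets of Ucp3, a mitochondrial carrier of muscle, fell too, 1420658_at by 1.96 ± 0.23 (adjusted p = 0.0263) and 1420657_at by 1.95 ± 0.24 (adjusted p = 0.0284).

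Of 54 probe sets for 28 oxidative genes under ERR, NRF1 or PGC-1, 0 rose and 4 fell, with a median of -1.17. Here 16 were higher and 38 lower, with groups that did not overlap in 4 of the higher and 21 of the lower ones. Cs, citrate synthase, fell by 2.12 ± 0.23 on 1422577_at (adjusted p = 0.0246). Idh3a 1432016_a_at of the citrate cycle fell by 2.12 ± 0.27 (adjusted p = 0.0306). The aspartate transaminase Got2 1417716_at fell by 2.05 ± 0.34 (adjusted p = 0.0445) and the oxoglutarate carrier Slc25a11 by 2.05 ± 0.32 (adjusted p = 0.0399). Cs stood at -1.99 on 1422578_at (adjusted p = 0.0541) and -1.42 on 1450667_a_at (adjusted p = 0.269). Further probe sets of Idh3a and Got2 were not called. Cs 1422577_at was -0.76, -0.90 and -0.11 in Max Dep and -1.10, -0.48 and -0.90 in Min Dep hearts, against 1.19, 1.64 and 1.40 in sham hearts, and its groups did not overlap. Cycs, whose promoter window is printed above, differed by -1.95 ± 0.37 on 1422483_a_at (adjusted p = 0.0560). Of the 18 cardiomyocyte probe sets 11 were lower and 7 higher, with a median of -0.66, and 1 fell past the threshold. Of the macrophage markers 4 of 14 rose and all 14 were higher, with a median of 1.70. Macrophage marker means were 0.84, 0.50 and 1.15 in Max Dep and 0.19, 0.66 and -0.13 in Min Dep hearts, against -1.37, -0.53 and -1.23 in sham hearts. Their part in the target differences was not tested.

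The other lists moved less or in both directions. Of 22 probe sets for mitochondrial DNA transcription and replication 0 were called, 16 were higher and the median was 0.57; Rrm2b, a ribonucleotide reductase subunit, differed by 1.84 ± 0.41 (adjusted p = 0.0768). Among 26 probe sets of partner receptors and paralogues, with a median of -0.53, 2 fell, Nr1d1, a repressor of the circadian clock, by 2.07 ± 0.32 (adjusted p = 0.0399) and Nfe2l2, a factor of the oxidative stress response, by 1.97 ± 0.33 (adjusted p = 0.0437). Among 35 probe sets of coactivators and corepressors, with a median of 0.67, 1 rose and 1 fell. The acetyltransferase Kat2b 1450821_at fell by 2.07 ± 0.26 (adjusted p = 0.0293), while its other probe set stood at 0.67, and Crebbp 1434633_at, a coactivator that binds PGC-1α, rose by 1.85 ± 0.29 (adjusted p = 0.0411). Among 61 probe sets of upstream regulators of PGC-1, with a median of -0.19, 2 rose and 3 fell. The transcription factor Mef2c rose by 1.95 on 1 of its 5 probe sets (adjusted p = 0.0424), and its other 4 lay between 1.23 and 1.77. Called probe sets of AMP kinase regulatory subunits parted. Prkag1 rose by 1.87 on 1 probe set (adjusted p = 0.0310), and Prkag2 1451140_s_at fell with a difference of -1.96 (adjusted p = 0.0324). No other probe set of either gene was called. Akt1 1425711_a_at fell by 2.08 (adjusted p = 0.0442) and the calcineurin subunit Ppp3cb 1427468_at by 2.01 (adjusted p = 0.0399), while the second probe sets of both stood at -0.99 and -0.61. All of these list calls were lost with eBayes moderation and without sham replicate 1, 2 or 3. Over the 9 fits with 1 array left out the fatty acid list had 0 to 6 calls, with 0 in 7 fits. The oxidative list had 0 to 7 calls, with 0 in 6 fits. Calls were 0 in 7 fits for partner receptors and paralogues, in 6 for coactivators and corepressors and in 8 for upstream regulators.

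In Max Dep against sham the 2 Ucp3 probe sets fell by 2.41 and 2.32, and Cs 1422577_at and Kat2b 1450821_at each fell by 2.0. The corepressor Ctbp1 rose there by 2.37, Mef2c 1421027_a_at by 2.30 and Prkag1 1417690_at by 1.85. In Min Dep against sham Cs 1422577_at fell by 2.23 and Prkag2 1451140_s_at by 2.29, the second with an adjusted p of 0.04999, just inside the threshold. None of the listed probe sets was called between Max Dep and Min Dep. In knockout hearts the fatty acid list had 0 called, with 37 of 45 probe sets lower and a median of -0.67. The oxidative list had 0 called, with 26 probe sets higher, 28 lower and a median of -0.12. Its 2 probe sets of smallest p went opposite ways, Cs 1450667_a_at at -1.51 (adjusted p = 0.326) and Vegfa 1451959_a_at at 2.16 (adjusted p = 0.362). So did those of the fatty acid list, where Vldlr 1442169_at was higher by 3.26 ± 0.50 (adjusted p = 0.137) and Ucp3 1420657_at was lower. Ucp3 1420657_at was -3.15 and -4.75 in KO CLP hearts, and -3.61 in the array left out, against 0.39, 0.00 and 0.37 in KO sham hearts, a difference of -4.20 ± 0.61 (adjusted p = 0.137). Its groups did not overlap, while in Pdk4 the KO CLP hearts were far apart, at -0.58 and -6.92, with -4.33 in the array left out, against 0.02, 2.09 and 1.57 in KO sham hearts (adjusted p = 0.389).

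**Figure D5:**
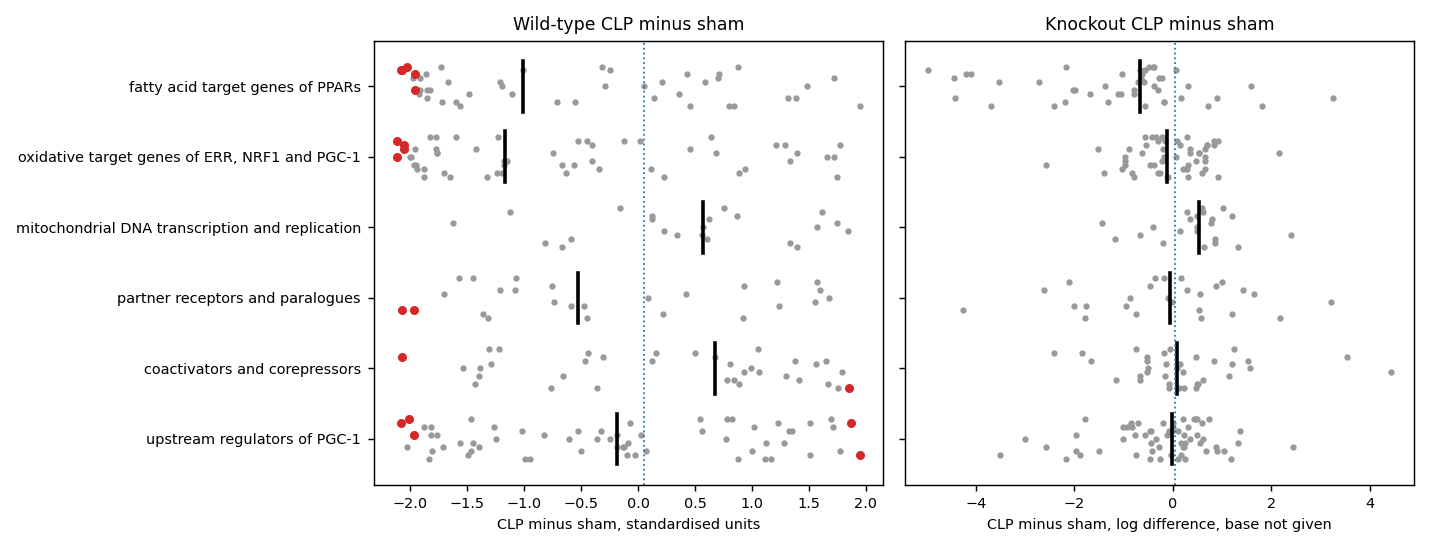
Differences of CLP minus sham for every probe set of the 6 gene lists, 1 point per probe set. The left panel shows wild-type hearts in standardised units and the right panel knockout hearts in log differences, base not given, so the panels cannot be compared in level. Called probe sets are red, a black bar marks each list's median and a dotted line the median of all probe sets. In wild-type hearts the fatty acid and oxidative lists have medians of -1.01 and -1.17, and the mitochondrial DNA list lies on the other side at 0.57.

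Likeness to the members was measured as Pearson's r over the 9 wild-type arrays, as a description, among all probe sets of 1 gene. Closest to Ppargc1a 1456395_at were Chpt1 (0.98), Syap1 (0.98) and Rnf14 (0.97), and Chpt1 also led for 1437751_at (0.97). Closest to Ppargc1a 1460336_at was Pde3a (0.96), to 1434099_at Usp25 (0.96) and to 1434100_x_at Hnrnpk (0.94). Closest to Ppara was Mdm2 (0.97) and to Esrra Leng1 (0.98). Between members, Ppara and Ppargc1a 1434099_at had r = 0.87, and Ppargc1a 1456395_at and Esrra had r = -0.71. Each closest gene was picked from 20380 probe sets over 9 arrays.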

How the data were processed

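Members and gene lists were chosen with earlier results of these data known, as was the use of unmoderated statistics. The authors deposited 2 value tables of 22690 probe sets, 9 wild-type and 6 knockout arrays; the sources used here name no processing software. The deposited wild-type values are a standardised score, tested on the table: undoing a linear step per array left each probe set with mean 0 and SD 1. The deposited knockout score behaves as a centred log difference. The 64 controls were left out. The platform annotation paired 20380 probe sets with 1 gene.

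Comparisons used limma 3.58.1 in R 4.3.3 (lmFit), adjusted by Benjamini-Hochberg over 22626 probe sets, threshold 0.05. Wild-type statistics were unmoderated on 6 residual degrees of freedom, because equal row SDs give moderation a false common spread; knockout statistics used eBayes. The code was tested on simulated data. Named from each list were called probe sets, up to 4 with the largest difference, and with none called the 2 of smallest p; Cycs, further called genes and some non-called values were added after their values were seen. Alternatives were eBayes, gene means, undone standardisation, a control-probe covariate and leaving out each array. p-values measure the spread between hearts. The number of arrays limits the precision.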

Additional observations from a re-analysis of the deposited data

Results flagged for a closer look

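In 4 probe sets the direction of CLP minus sham was opposite in wild-type and knockout hearts, with every CLP heart used on the same side of its own sham mean. That is 6 hearts in wild type but only 2 in the knockout, and in Ppargc1a 1437751_at and 1460336_at the value of 1 of these 2 is exactly 0, which carries little information. The share of all probe sets that meet this rule is not given here, so whether 4 of 18 members is unusual cannot be told. The Ppargc1a probe sets among them read the same gene on the same arrays and are not independent. The difference between genotypes was not tested, because the tables have different scales and array models. Ppargc1a 1437751_at differed by -1.90 standardised units in wild-type hearts and by 1.71 log units in knockout hearts. Ppargc1a 1456395_at differed by -2.06 and 1.38 on the same scales. Ppargc1a 1460336_at differed by -1.45 in wild-type and 0.52 in knockout hearts, where it turned to -0.82 with all 6 arrays. Nrf1 1424787_a_at differed by 1.10 in wild-type and -0.74 in knockout hearts; with the control-probe covariate the wild-type value turned to -0.20, the same sign as in the knockout. None of the knockout differences passed the threshold, and of the wild-type ones only 1456395_at did.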

How the results depend on the processing

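For CLP against sham in wild-type hearts, the 1 member called became 0 with eBayes moderation, with the mean of probe sets per gene (89 of 12393 genes called), with the 5′ minus 3′ difference of control probe sets as a covariate and with the exact permutation test adjusted over all probe sets; it stayed 1 with one-gene probe sets and with the array standardisation undone. Leaving out 1 array gave 0 to 1 members. Undoing the standardisation gave 1 called member for Max Dep against sham in place of 0, Ppargc1a 1456395_at at -1.91. That probe set stayed below 0 for CLP against sham in all settings run. With the covariate, Nrf1 1420978_at turned to -1.02, Nrf1 1424787_a_at to -0.20, Nrip1 1418469_at to -0.039 and Ppargc1b to -1.27, and without a change of sign Ppargc1a 1434100_x_at moved from -0.42 to -2.03, Ppargc1a 1434099_at from -0.59 to -1.27, Ppara from -0.52 to -1.15, Tfam from -0.48 to -0.82, Rxra 1454773_at from 0.62 to 1.08, Rxra 1425762_a_at from -1.57 to -0.89, Nrf1 1434627_at from 0.72 to 1.34 and Nrip1 1449089_at from -1.28 to -0.53, none of them called. With all 6 knockout arrays, Nrip1 1418469_at turned to -0.43 and Ppargc1a 1460336_at to -0.82, with 210 probe sets called and no member among them. With 1 array left out, signs turned in wild-type hearts for Nrf1 1434627_at (-0.22 to 1.31), Ppargc1a 1434100_x_at (-1.29 to 0.20) and Ppargc1b (-0.14 to 0.83). They turned in knockout hearts for Esrra (-0.23 to 0.56), Nrf1 1420978_at (-1.04 to 0.050), Nrip1 1418469_at (-2.38 to 2.74), Nrip1 1449089_at (-0.92 to 0.83), Ppargc1a 1434100_x_at (-0.23 to 0.51), Ppargc1a 1460336_at (-0.21 to 1.84), Rxra 1425762_a_at (-0.27 to 0.060) and Tfam (-0.014 to 1.75). The cause of these changes was not tested. A filter on dim probe sets was not run, because the values carry no level. No paired analysis was possible because the labels give the arrays no shared replicate numbers. The number of hearts, 3 a group and only 2 in the knockout CLP group used, limits every comparison, and a difference that was not called may still be large.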

Other observations

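Other cell types were read from marker lists. In septic wild-type hearts all 12 fibroblast probe sets were lower than in sham hearts and 1 fell, with a median of -1.51. Of 8 neutrophil probe sets 6 were higher and 2 lower, with a median of 1.54, and 2 rose past the threshold. These were S100a8 by 1.93 ± 0.24 (adjusted p = 0.0280) and S100a9 by 1.92 ± 0.26 (adjusted p = 0.0334), both calcium-binding proteins abundant in neutrophils. Of 8 endothelial probe sets 0 were called, 5 were higher and the median was 0.84. The macrophage genes that rose were Fcer1g, Tyrobp, Adgre1 and C1qa, and the cardiomyocyte gene that fell was Ryr2, the calcium release channel, by 2.11 ± 0.24 (adjusted p = 0.0257).

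In knockout hearts none of these lists had a called probe set. Endothelial marker means were -0.59 and -2.10 in the KO CLP hearts used, and -1.12 in the array left out, against 1.63, 1.72 and 0.66 in KO sham hearts, with 7 of 8 probe sets lower and a median of -3.17. Fabp4, a fatty acid carrier of fat cells and capillary endothelium and a known PPARγ target, differed by -5.88 ± 0.69 on 1424155_at (adjusted p = 0.131). On 1417023_a_at it differed by -5.61 ± 0.78 (adjusted p = 0.136). These were the 2 adipocyte probe sets of smallest p, and further Fabp4 probe sets are not given here. The part of Fabp4 in the Pparg values was not tested. Neutrophil and macrophage medians were 2.90 and 2.63, and the fibroblast median was -1.04.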
